A study of Mus musculus with 8 samples.

Results

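Complex I of the respiratory chain is built from nuclear and mitochondrially encoded subunits, and its nuclear genes carry symbols that begin with Nduf. The members described here are the 47 genes with such a symbol among the 13227 genes of the deposited count files. By role they are 36 subunit genes, 8 genes of assembly factors (Ndufaf), 2 genes named Nduf whose proteins are not counted as complex I subunits here (Ndufa4 and Ndufa4l2) and 1 processed pseudogene (Ndufs6b). The subunit genes comprise 7 of the catalytic core, 10 accessory genes of the matrix arm and 19 accessory genes of the membrane arm. The mouse annotation GENCODE M21 lists 51 Nduf genes. The other 4 (Ndufs5 and the pseudogenes Ndufa11b, Ndufab1-ps and Ndufb4c) were not analysed here.

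RNA came from hearts of the inbred strain FVB/N, taken from adults 3 months old, and all 8 animals are labelled male. Hearts A, B, D and E are labelled non-transgenic. The 4 transgenic mice (hearts A, B, C and E) overexpress FASTKD1, which belongs to the FASTK proteins that bind RNA in mitochondria. The series calls the overexpression cardiac-specific. The sources used here do not say which promoter drives it or how many lines were made. Each letter was taken as 1 animal, and nothing in the labels says more about their independence, so p-values measure the spread between these samples. Below, values per heart run in the order A, B, D, E for non-transgenic and A, B, C, E for transgenic hearts, with non-transgenic first.

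Complex I takes electrons from NADH in its matrix arm, passes them along iron-sulfur clusters to ubiquinone, and pumps protons through its membrane arm. The core subunits carry out this chemistry, the accessory subunits surround and stabilise the core, and assembly factors help to build the enzyme without remaining in it. In heart muscle, where mitochondria fill much of the cell, it is a main entry point of electrons for ATP production.

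Total counts per library ran from 44584359 to 55769859, and depth did not separate the groups (two-sided exact permutation test, p = 0.914). Mitochondrially encoded genes took 18.6% to 30.1% of counts (exact permutation p = 0.943 between the groups, two-sided). Levels are given in CPM, the count scaled to library size by the TMM method. Fastkd1 itself had 8845 to 11520 CPM in the transgenic hearts against 26.3 to 33.8 CPM in the non-transgenic ones other than D. The library labelled non-transgenic D stood apart. It held 192 CPM of Fastkd1 and 0 counts of 4 Y-linked genes, which had 10372 to 15914 counts in the other 7 libraries, all labelled male like it. The main counts and sums of the Nduf genes are therefore given with and without it.

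To show the regulatory sequence of the members, promoter windows were taken from RefSeq (build GRCm38.p6), from 250 bases before to 50 bases after each start. Of the 47 members, 39 matched a window. They were searched on both strands for the letters of factors known to regulate nuclear genes of respiratory complexes, and for C/EBP-ATF elements. The NRF1 letters GCGCANGCG occurred in 8 of 33 windows of subunit genes (24.2%), against 12.7% of the 12905 windows of genes tested here and 6.25% of all 32851 windows. The YY1 letters ATGGCGG occurred in 9 of the 33 (27.3%), against 7.56% and 4.05%. For the ETS letters CCGGAAG, bound by GABP, the count was 4 of 33 (12.1%), against 16.5% and 8.86%. The letters AAGGTCA, a site of the oestrogen-related receptors, occurred in 2 of 33 (6.06%), against 3.22% and 4.72%. The letters TGATGNAA of C/EBP-ATF elements occurred in 0 of 33, against 2.28% and 3.97%. Of the 7 windows of Ndufaf genes, 2 held the NRF1 letters, 2 the ETS letters and 2 the YY1 letters. A run that matched on both strands counts once, and no match to one motif overlapped a match to another in these windows. The 33 windows belong to 31 genes, and the 12905 windows to 10061. Ndufa5 and Ndufa7 have overlapping windows. An NRF1 match of Ndufa5 and a YY1 match of Ndufa7 are therefore counted in more than 1 window.

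The stretches below lie upstream of the start, outside every annotated exon, and are written 5′ to 3′ on the gene's strand with the matched letters in capitals. In each window the exon-free stretch nearest the start, up to 120 bases, was examined, and the 4 that held a match are shown: NRF1 letters for the membrane-arm genes Ndufa11 (chr17:56717686-56717761, plus strand) and Ndufb4 (chr16:37654454-37654573, minus strand) and the assembly factor gene Ndufaf4 (chr4:24897963-24898082, plus strand), and ETS letters for the assembly factor gene Ndufaf1 (chr2:119662835-119662954, minus strand). In Ndufa11 and Ndufaf4 the run reads as NRF1 letters on both strands.
Ndufa11: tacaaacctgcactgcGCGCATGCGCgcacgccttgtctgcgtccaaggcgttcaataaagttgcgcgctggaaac
Ndufb4: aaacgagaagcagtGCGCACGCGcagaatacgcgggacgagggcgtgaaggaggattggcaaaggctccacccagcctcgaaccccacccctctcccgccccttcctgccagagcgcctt
Ndufaf4: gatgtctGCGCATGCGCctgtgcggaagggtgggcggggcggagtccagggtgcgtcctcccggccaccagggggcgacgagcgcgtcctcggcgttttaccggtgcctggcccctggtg
Ndufaf1: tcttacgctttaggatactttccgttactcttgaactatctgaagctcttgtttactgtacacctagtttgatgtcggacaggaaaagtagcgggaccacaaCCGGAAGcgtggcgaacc

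In the transgenic hearts every Nduf gene analysed had a lower fitted mean than in the non-transgenic hearts: 47 of 47 log2 fold changes were below 0, against 48.8% of the 13226 genes tested. The median log2 fold change (transgenic minus non-transgenic) was -0.30 over the 36 subunit genes, with a range of -0.49 (Ndufb1-ps) to -0.17 (Ndufa12), and -0.15 over the 8 Ndufaf genes, against 0.0057 over all genes tested. The 3 groups of subunit genes were alike, with medians of -0.30 for the core, -0.31 for the accessory genes of the matrix arm and -0.29 for those of the membrane arm. No single member passed edgeR's quasi-likelihood test at an adjusted p of 0.05. The counts were 0 of 36 subunit genes and 0 of 8 Ndufaf genes, where 1.25% of all genes passed and 0.242% passed as lower.

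At an unadjusted p below 0.05, 25 of the 47 members were lower (23 subunit genes, Ndufaf1 and Ndufa4) and 0 were higher, against 5.38% of all genes that were lower. This count depended on single libraries. It was 39 without the library labelled non-transgenic D, where 8.43% of all genes were lower, and 4 without non-transgenic heart A, where 3.74% were. Leaving out non-transgenic B gave 7 (5.87% of all genes), and non-transgenic E 30 (6.24%). Leaving out transgenic A, B, C or E gave 13, 19, 8 or 10 (6.07%, 3.61%, 3.76% and 4.63% of all genes). With library totals that leave out the mitochondrially encoded genes it was 13 (3.02%), and with limma-voom and sample weights 14 (9.02%). Other tools called a single member: Ndufab1 with DESeq2 (adjusted p = 0.0113), which called 3.08% of all genes, and the same gene with limma-voom and sample weights (adjusted p = 0.0300), which called 4.55%.

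**Figure D1:**
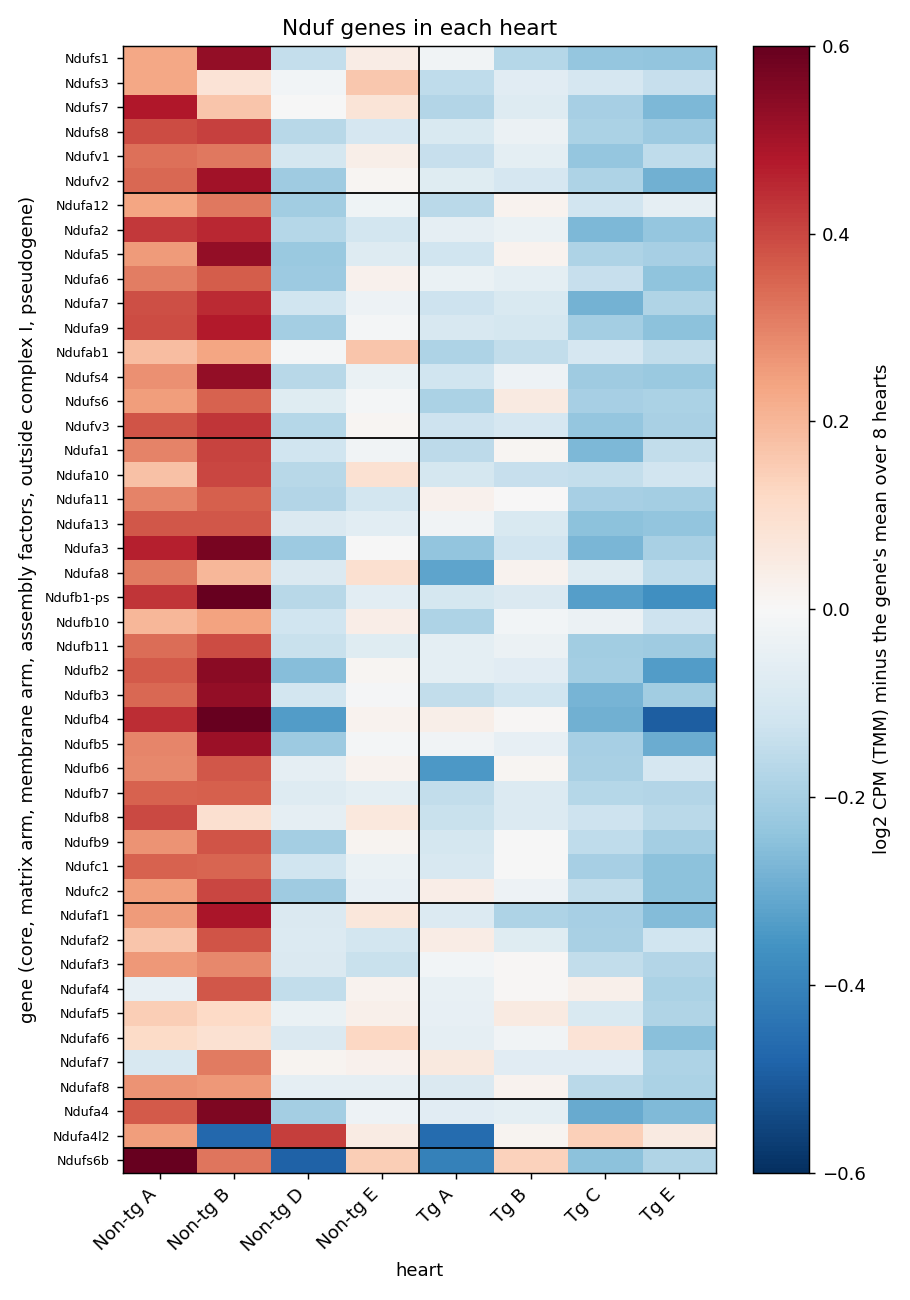
Each of the 46 rows is a Nduf gene and each column a heart; colour gives the gene's log2 CPM in that heart minus its mean over the 8 hearts, and the darkest colours also cover values beyond the scale. Red marks levels above the gene's mean and blue levels below it. Non-transgenic hearts A and B are red in all 35 subunit rows, while non-transgenic heart D is mostly blue, as the transgenic hearts are.

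The hearts did not take part in this evenly. Non-transgenic heart B had the highest CPM of all 8 hearts for 29 of the 36 subunit genes and non-transgenic heart A for the other 7. Hearts A and B both lay above every transgenic heart for 36 of 36 subunit genes. Non-transgenic heart E did so for 23 and the library labelled non-transgenic D for 7. The lowest heart was transgenic E for 19 genes, transgenic C for 9, transgenic A for 5 and non-transgenic D for 3. These ranks use TMM scaling and moved with it. With CPM of the unscaled library totals, non-transgenic heart A was highest for 20 subunit genes, B for 13 and E for 3. Non-transgenic A, B, D and E then lay above every transgenic heart for 36, 30, 21 and 26 genes, and D was the lowest for 0.

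The complete separation of the groups, with all transgenic below all non-transgenic hearts, was seen in 7 of the 47 members, all of them subunit genes, with Ndufs7, Ndufab1, Ndufb3 and Ndufb7 among them. Over all genes the share was 2.8%. Without the library labelled non-transgenic D it was 27 of 47 (23 subunit genes and 2 Ndufaf genes among them), against 6.89% of all genes. Leaving out transgenic heart B gave 14 (3.39% of all genes) and transgenic A 10 (6.1%). It was 7 each without non-transgenic A, B or E (3.86%, 5.35% and 4.05%) and without transgenic C or E (3.4% and 4.16%). With CPM of the unscaled library totals, 15 of 47 separated, against 2.57%, and 3 of these (Ndufb3, Ndufb7 and Ndufab1) also did with TMM scaling. With totals that leave out the mitochondrially encoded genes, 7 of 47 separated, against 1.79%.

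**Figure D2:**
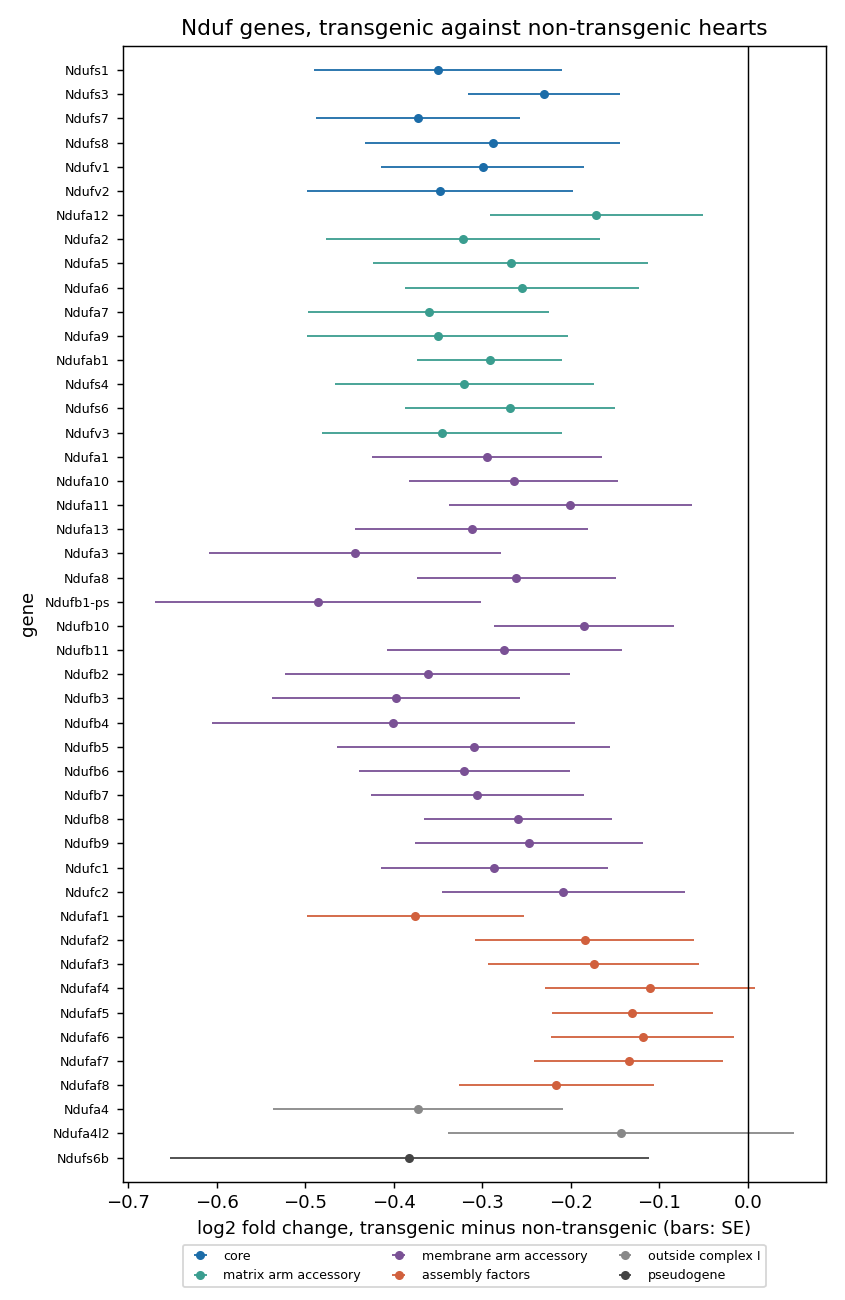
Points give the log2 fold change of each of 46 Nduf genes, transgenic minus non-transgenic hearts, and bars its SE from edgeR; colours mark the role of the protein. All points lie below 0, from -0.49 for Ndufb1-ps to -0.11 for Ndufaf4, and 7 of the 8 Ndufaf genes lie between -0.22 and -0.11.

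In the catalytic core, Ndufs7 and Ndufs3 were among the genes that separated the groups completely. Ndufs7, which holds the last iron-sulfur cluster before ubiquinone, was at 302, 242.5, 216 and 228 CPM in the non-transgenic hearts and at 191, 204.5, 188 and 179 CPM in the transgenic hearts. The groups did not overlap (log2 fold change -0.37, SE 0.12, edgeR adjusted p = 0.239). Ndufs3, another subunit of the module that binds ubiquinone, was at 265, 239, 223 and 253 CPM against 203, 216, 211 and 205 CPM (log2 fold change -0.23, SE 0.09, edgeR adjusted p = 0.354). The hearts lay close together, with SDs of 18.1 and 5.69 CPM around means of 245 and 209 CPM (n = 4 each). Ndufs3 has a processed pseudogene in the files, Gm12251, that is 98.6% identical over 792 bases. For both genes the separation was not seen with unscaled library totals, where non-transgenic heart B fell within the transgenic range.

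The subunits that take up electrons from NADH overlapped between the groups with TMM scaling. Ndufv1, which binds NADH and the flavin, was at 829.3, 821, 614 and 676 CPM in the non-transgenic hearts and at 600, 634, 562 and 593 CPM in the transgenic hearts (log2 fold change -0.30, SE 0.11, edgeR adjusted p = 0.370). Only the library labelled non-transgenic D reached into the transgenic range. Ndufv2, an iron-sulfur subunit beside it, was at 610.5, 681, 414.5 and 485 CPM against 458, 448, 422 and 394 CPM, with non-transgenic D below 3 of the 4 transgenic hearts. Ndufs1, another iron-sulfur subunit of that module, was at 967, 1188, 747 and 849 CPM against 812, 733, 700.5 and 698 CPM. Non-transgenic D lay below transgenic A for that gene. Ndufs8, an iron-sulfur subunit on the path to ubiquinone, was at 301, 305.5, 205 and 215 CPM against 216, 225, 202 and 198 CPM. Here D and E both lay within the transgenic range. The log2 fold changes of Ndufv2, Ndufs1 and Ndufs8 were -0.35, -0.35 and -0.29, and their edgeR adjusted p-values lay between 0.402 and 0.529. With unscaled library totals the groups did not overlap for Ndufv1, Ndufv2 and Ndufs1, and still overlapped for Ndufs8.

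Among the accessory genes of the matrix arm, Ndufab1 had the smallest p of all 47 members. It encodes the mitochondrial acyl carrier protein, which also serves fatty acid synthesis and iron-sulfur cluster assembly, and lies at chr7:122085403-122101886 (minus strand, GRCm38). Its CPM was 115, 119, 99.8 and 113 in the non-transgenic hearts and 88.6, 91.0, 94.0 and 91.0 in the transgenic hearts. No heart crossed between the groups on either scaling, and the means were 112 ± 8.15 and 91.2 ± 2.22 CPM (SD, n = 4 each). edgeR gave a log2 fold change of -0.29 (SE 0.08, adjusted p = 0.180), and of -0.35 without the library labelled non-transgenic D (adjusted p = 0.0683). The range of its adjusted p over all alternatives was 0.0113 to 0.443. Processed pseudogenes nearly identical to Ndufab1 exist, Ndufab1-ps and Gm4459 (99.4% and 99.8% over 469 and 468 bases), and the sources used here do not say how reads that match both were counted.

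Ndufa7, a small accessory subunit, was at 181, 188.5, 127 and 135 CPM against 127, 130, 113 and 122 CPM (log2 fold change -0.36, SE 0.14, edgeR adjusted p = 0.363). Hearts A and B stood well above the other 6. With unscaled library totals the groups did not overlap for Ndufa7. The remaining 8 genes of this group had log2 fold changes of -0.35 (Ndufa9, a subunit beside the ubiquinone channel) to -0.17 (Ndufa12), and adjusted p-values of 0.386 to 0.699. Ndufa12 has a nearly identical pseudogene too (Gm15920, 99.5% over 402 bases), so its count is uncertain in the same way. Ndufs4 and Ndufs6, both known from human complex I deficiency, were at -0.32 and -0.27.

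In the membrane arm the most negative values belonged to small accessory subunits. Ndufb1-ps was at 285.5, 344, 189 and 203 CPM in the non-transgenic hearts and at 197, 199.6, 168.5 and 164 CPM in the transgenic hearts (log2 fold change -0.49, SE 0.18, edgeR adjusted p = 0.366). GENCODE M21 types it as a non-coding RNA from a bidirectional promoter. It was grouped here with the subunit genes by its symbol, and whether it encodes a subunit was not examined. Ndufa3 was at 402, 431, 250 and 289.5 CPM against 246, 268, 240 and 254 CPM (log2 fold change -0.44, SE 0.16, edgeR adjusted p = 0.355). In both genes hearts A and B stood far above the rest, and D lay within the transgenic range. With unscaled library totals the groups did not overlap in either gene.

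Ndufb3, a subunit of the far end of the membrane arm, separated the groups on both scalings. It was at 241, 274, 176 and 189 CPM against 172, 175, 157 and 164 CPM, and the margin between the library labelled non-transgenic D and transgenic heart B was about 1 CPM (175.8 against 174.8). The log2 fold change stood at -0.40 (SE 0.14, edgeR adjusted p = 0.323), and at -0.50 without that library. Ndufb6 was at 96.5, 102, 76.1 and 80.2 CPM against 62.1, 79.6, 68.9 and 73.5 CPM (log2 fold change -0.32, SE 0.12, edgeR adjusted p = 0.357). Transgenic heart A was the lowest, and transgenic B lay among the non-transgenic hearts. With unscaled library totals the groups did not overlap for Ndufb6. Of the Ndufb6 exon bases, 39.0% also belong to Smim27 on the opposite strand, and the sources used here do not say whether counting used strand. The same holds for Ndufa13 and Tssk6 (30.0%) and for Ndufaf2 and B230220B15Rik (65.6%).

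The other 15 genes of the membrane arm ran from -0.40 (Ndufb4) to -0.19 (Ndufb10). Ndufb8, whose protein is a common marker of assembled complex I, was at 593, 482, 434 and 472 CPM against 412, 426.5, 414 and 403 CPM, and Ndufb7 was at 249, 249, 184.5 and 187 CPM against 175, 183, 172.5 and 172 CPM. With TMM scaling neither gene overlapped between the groups, by a narrow margin in each. With unscaled library totals Ndufb7 did not overlap either, but for Ndufb8 non-transgenic heart B fell within the transgenic range. Their log2 fold changes were -0.26 and -0.31 (edgeR adjusted p = 0.418 and 0.390).

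Of the 8 Ndufaf genes, Ndufaf1 had the smallest p in the edgeR test. It works with the mitochondrial complex I intermediate assembly complex on the membrane arm. Its CPM was 43.8, 51.4, 34.5 and 38.4 in the non-transgenic hearts and 34.7, 32.3, 32.0 and 30.6 in the transgenic hearts, so that the library labelled non-transgenic D fell just below transgenic A. With unscaled library totals the groups did not overlap. At -0.38 (SE 0.12, edgeR adjusted p = 0.287) it had the most negative log2 fold change of the 8 Ndufaf genes.

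The other 7 lay between -0.22 and -0.11. Ndufaf8, the partner of Ndufaf5, was at 21.6, 21.4, 17.2 and 17.2 CPM against 16.8, 18.1, 16.0 and 15.7 CPM (log2 fold change -0.22, SE 0.11, edgeR adjusted p = 0.543). Ndufaf2, a paralogue of the subunit Ndufa12 that holds its place during assembly, was at 19.5, 22.6, 16.4 and 16.1 CPM against 17.9, 16.5, 15.2 and 16.0 CPM (log2 fold change -0.18, SE 0.12). Ndufaf3, which acts with Ndufaf4 on the ubiquinone module, was at 27.9, 28.4, 21.9 and 21.2 CPM against 23.04, 23.4, 21.02 and 20.6 CPM (log2 fold change -0.17, SE 0.12). In all 3, non-transgenic hearts A and B were high and hearts D and E were in the range of the transgenic hearts. Ndufaf5, Ndufaf6 and Ndufaf7 lay at -0.13, -0.12 and -0.13 with SEs of 0.09, 0.10 and 0.11. Ndufaf4 had the smallest difference (-0.11, SE 0.12), and it turned to 0.0094 without non-transgenic heart B, whose 101 CPM stood above the 68.3 to 79.6 CPM of the other 7 hearts.

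Ndufa4, now counted as a subunit of cytochrome c oxidase, was at 932, 1067, 627 and 707 CPM in the non-transgenic hearts and at 691, 695, 585.5 and 602 CPM in the transgenic hearts (log2 fold change -0.37, SE 0.16, edgeR adjusted p = 0.448). It showed the order of non-transgenic hearts seen with TMM scaling in most subunit genes, B above A, E and D. Its paralogue Ndufa4l2, known as a target of hypoxia signalling, was at 9.38, 5.68, 10.5 and 8.16 CPM against 5.72, 7.98, 8.69 and 8.18 CPM, with no group apart (log2 fold change -0.14, SE 0.20, edgeR adjusted p = 0.860). There non-transgenic heart B, the highest for most subunit genes with TMM scaling, was the lowest of the 8. The pseudogene Ndufs6b, 96.6% identical to Ndufs6 over 348 bases, was at 0.688 to 1.56 CPM in all hearts.

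Summed over the 36 subunit genes, the level was 13110, 13690, 9604 and 10670 CPM in the non-transgenic hearts and 9776, 10060, 9235 and 9162 CPM in the transgenic hearts. The mean was 11770 ± 1948 CPM against 9558 ± 432 CPM (SD, n = 4 each), and the library labelled non-transgenic D lay below transgenic A and B. With unscaled library totals the sums were 12020, 11680, 10660 and 11030 CPM against 9659, 10270, 9793 and 9561 CPM, with no overlap. Without D the non-transgenic means were 12490 and 11580 CPM on the respective scalings (n = 3). The scaling moved the non-transgenic hearts most: the spread between them shrank from an SD of 1948 to 615 CPM. Over the 8 Ndufaf genes the sums were 245, 289, 215 and 230 CPM against 224, 224, 218 and 200 CPM with TMM scaling, and 225, 247, 239 and 238 CPM against 221, 229, 231 and 209 CPM with library totals. The groups overlapped on both scalings.

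**Figure D3:**
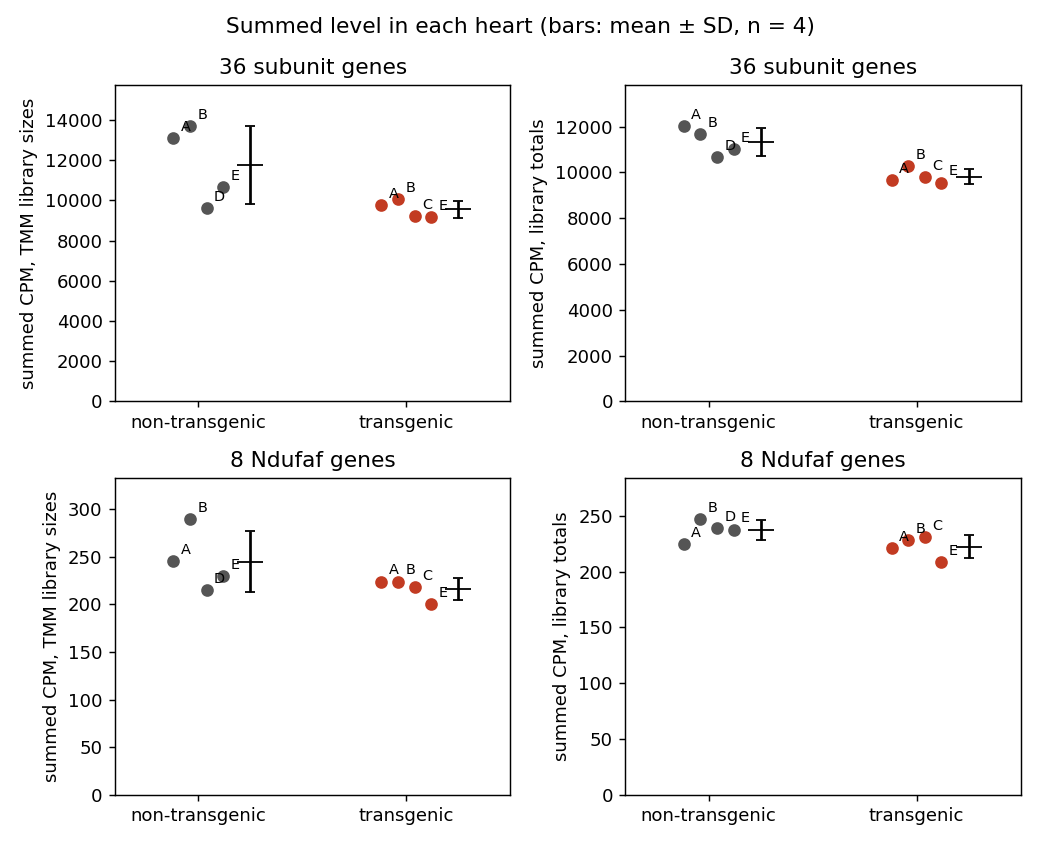
Points give the summed CPM of the 36 subunit genes (top) and of the 8 Ndufaf genes (bottom) in each heart, labelled by its letter, with TMM library sizes (left) and library totals (right); bars give the mean and SD of 4 hearts. The subunit sums of the 4 transgenic hearts lie below all non-transgenic hearts with library totals, and overlap with the library labelled non-transgenic D with TMM sizes.

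The spread between hearts was itself uneven. The SD of log2 CPM between non-transgenic hearts was larger than that between transgenic hearts for 36 of 36 subunit genes (median 0.27 against 0.09) and for 6 of 8 Ndufaf genes, against 77.6% of all genes tested. Other measures moved with the order of the non-transgenic hearts. The share of mitochondrially encoded counts was 25.3%, 30.1%, 18.6% and 21.2%, in the same order of hearts as the subunit sum with TMM scaling. With library totals that sum was higher in A than in B. The TMM factors were 0.916, 0.853, 1.11 and 1.03, lowest where that share was highest. The summed CPM of 4 nuclear-retained transcripts (Malat1, Neat1, Meg3 and Kcnq1ot1) was 406, 515.5, 1007 and 757, highest in D and E. In the transgenic hearts the share was 27.0%, 24.04%, 21.9% and 23.01%, and the sum of these transcripts 393, 628, 814 and 829.1 CPM. Their part in the subunit result was not tested.

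Cell type markers were read beside the subunits because, in a whole heart, fewer cells of a type and less RNA per cell cannot be told apart. All 8 cardiomyocyte markers, a list apart from the atrial one, had log2 fold changes below 0 and 0 passed the test. The median was -0.36, with a range of -0.57 to -0.0052, the last for Ryr2. Their summed level was 66000 to 77380 CPM in the non-transgenic hearts and 54450 to 57170 CPM in the transgenic hearts, without overlap. With library totals 7 of the 8 were below 0 and 1 was called, where 1.27% of all genes were. It was Pln, the phospholamban gene (log2 fold change -0.47, edgeR adjusted p = 0.0326). DESeq2 called 4 of the 8, against 3.08% of all genes. Myh6, Pln and Tnnt2 were called by limma-voom with sample weights, against 4.55% of all genes. The 5 endothelial, 6 macrophage, 4 erythroid and 4 adipocyte markers were also all below 0, 4 of 6 fibroblast markers and 2 of 5 mural markers were, and 0 of these passed. Without D, 3 of 5 endothelial, 3 of 6 fibroblast and 3 of 4 adipocyte markers were below 0. With library totals 2 of the 5 endothelial and 3 of the 6 fibroblast markers were below 0. The smooth muscle actin gene Acta2, a mural marker singled out after its values were seen, was at 108 to 173 CPM in the non-transgenic and 210.3 to 375 CPM in the transgenic hearts (log2 fold change 1.03, edgeR adjusted p = 0.0505). It was called with library totals and with totals that leave out the mitochondrially encoded genes (adjusted p = 0.0441 and 0.0324), as by DESeq2 and limma-voom. DESeq2 also called 1 endothelial marker (Fabp4) and 1 erythroid marker (Hba-a1). The mural markers summed to 644 to 1060 against 773 to 1023 CPM. The summed endothelial level was 1071 to 1347 CPM against 935 to 1029 CPM, that of fibroblast markers 1255 to 1754 against 1208 to 1689 CPM and that of macrophage markers 107 to 145 against 103 to 129 CPM. Erythroid markers summed to 356 to 803 against 299 to 416 CPM, and 4 atrial markers to 16.2 to 572 against 20.1 to 2988 CPM, highest in the library labelled non-transgenic D and in transgenic A. In each list 0 of the markers tested were at 0 in any heart, and the part of cell composition in the subunit result was not tested.

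Measures within a heart do not depend on library scaling. The mean log2 CPM of the subunit genes exceeded that of the Ndufaf genes by 3.47, 3.38, 3.21 and 3.28 in the non-transgenic hearts and by 3.19, 3.25, 3.18 and 3.26 in the transgenic hearts. A and B were above the rest, D was within the transgenic range, and the group means were 3.33 ± 0.11 and 3.22 ± 0.04 (SD, n = 4 each). Relative to 42 nuclear genes of complexes II to V the subunit genes stood at -0.94, -0.89, -1.03 and -1.02 against -1.01, -1.03, -1.06 and -1.08, again with overlap (means -0.97 ± 0.07 and -1.04 ± 0.03). The counts of 5 mitochondrially encoded complex I genes per count of the 36 nuclear subunit genes were 9.42, 11.2, 7.36 and 8.30 against 14.5, 12.1, 11.3 and 12.3. The groups did not overlap in this ratio, though only narrowly (11.21 in non-transgenic B and 11.25 in transgenic C), and its means were 9.07 ± 1.65 and 12.5 ± 1.37. Without D the non-transgenic means of the 3 measures were 3.38, -0.95 and 9.64 (n = 3).

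**Figure D4:**
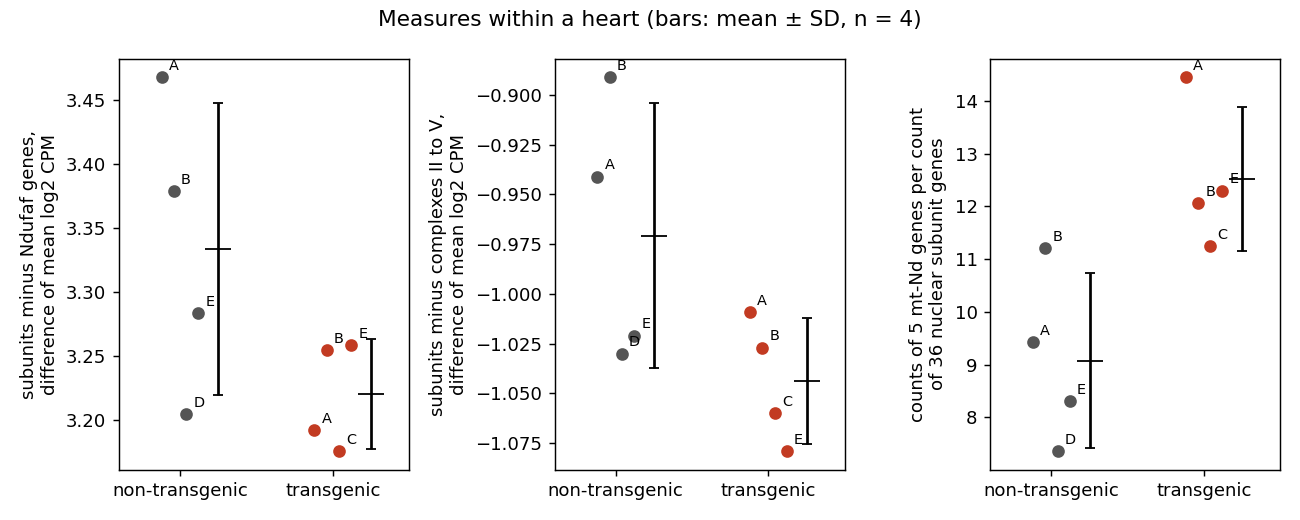
Each panel shows 1 measure per heart, labelled by its letter, with the mean and SD of 4 hearts: the subunit genes minus the Ndufaf genes and minus complexes II to V (differences of mean log2 CPM), and counts of 5 mitochondrially encoded complex I genes per count of 36 nuclear subunit genes. The vertical axes do not start at 0. Only the last measure has no overlap between the groups.

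Of the 5 mitochondrially encoded partners analysed here, 0 passed the test, 2 were below 0, and the median log2 fold change was 0.16. Without the library labelled non-transgenic D that median was -0.01. mt-Nd5, a proton-pumping subunit, was at 28070, 32100, 15310 and 18540 CPM in the non-transgenic hearts and at 36080, 31190, 26690 and 29150 CPM in the transgenic hearts (log2 fold change 0.39, SE 0.22, edgeR adjusted p = 0.602, and 0.0491 with limma-voom and sample weights). mt-Nd1, which lines the ubiquinone site, was at 36120, 48530, 21680 and 26900 CPM against 45440, 38840, 33560 and 36240 CPM (log2 fold change 0.21, SE 0.22). Non-transgenic hearts A and B lay in or above the transgenic range in both genes, and D and E below it.

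Other genes serve the building of complex I. Of 12 assembly factors with other symbols, 12 were below 0 and 0 passed (median log2 fold change -0.11). With unscaled library totals 7 of the 12 were below 0 and the median was -0.03, and the medians of the 36 subunit genes and the 8 Ndufaf genes were then -0.21 and -0.07. Without the library labelled non-transgenic D the medians were -0.15 for these 12, -0.39 for the subunit genes and -0.21 for the Ndufaf genes. The smallest p-values belonged to Tmem186, a member of the same intermediate assembly complex as Ndufaf1 (38.2 ± 3.04 against 33.7 ± 0.736 CPM, SD, n = 4 each; log2 fold change -0.18, edgeR adjusted p = 0.480), and to Tmem126b of that complex (-0.17, edgeR adjusted p = 0.629). Of 12 genes of iron-sulfur cluster assembly, 8 were below 0 (6 with library totals, 11 without D) and 0 passed (median -0.08, and -0.13 without D). The late-acting carrier Nfu1 was above 0 at 0.28 (SE 0.11, edgeR adjusted p = 0.382; 0.0395 without non-transgenic B, and 0.0107 with limma-voom and sample weights) and Bola3, which works with it, was below 0 at -0.25.

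Complexes II to V had 40 of 42 genes below 0 (37 with library totals) and 0 that passed, with a median of -0.24. Their smallest p-values were those of 2 isoforms of cytochrome c oxidase, Cox8a at 0.37 (edgeR adjusted p = 0.0679) and Cox7a1 at -0.55 (edgeR adjusted p = 0.130). Both were called with library totals (adjusted p = 0.0457 and 0.0348), where 1.27% of all genes were. With totals that leave out the mitochondrially encoded genes Cox8a was called (adjusted p = 0.0104; 1.41% of all genes), and without D Cox7a1 (adjusted p = 0.0418; 1.59%). DESeq2 called 4 of the 42, against 3.08% of all genes. Cox8a and Cox7a1 were also called by limma-voom with sample weights, against 4.55% of all genes. The median without D was -0.33. Of 11 regulators of mitochondrial biogenesis, 3 were below 0 (2 with library totals, 3 without D), 0 passed and the median was 0.06 (0.03 without D). Yy1, whose letters were among those searched above, was at 42.8 ± 5.71 against 48.1 ± 2.18 CPM (SD, n = 4 each; log2 fold change 0.17, edgeR adjusted p = 0.648), and Esrrg was at 0.11. Nrf1 stood at 10.04 ± 0.439 against 10.05 ± 0.806 CPM.

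Levels of different genes were compared per kilobase of exon. Over the non-transgenic hearts the subunit genes had a median of 190 CPM per kb and the Ndufaf genes of 12.4 CPM per kb, and 33 of 36 subunit genes lay above every Ndufaf gene. Ndufa1, an X-linked membrane-arm gene, led the subunits at 614 ± 106 CPM per kb. Ndufa8 at 389 ± 44.9 and Ndufb11 at 386 ± 71.7 CPM per kb (SD, n = 4) were also high and differed by less than their spread. The lowest were Ndufb2 at 10.9 ± 2.63, Ndufb4 at 11.3 ± 3.19 and Ndufab1 at 16.2 ± 1.19 CPM per kb, a 56.5-fold range from Ndufa1 to Ndufb2. Ndufb4 has a processed copy, Ndufb4c, that matches it at 100% over 390 bases, and Ndufb11 has one at 96.9% over 456 bases (Gm6444). How shared reads were counted is unknown for them as for Ndufab1. Without the library labelled non-transgenic D the medians were 202 and 12.8 CPM per kb, and again 33 of 36 subunit genes lay above every Ndufaf gene.

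The exon length used decides part of this order. With the length of the principal transcript only, chosen after these values were seen, the subunit median was 311 CPM per kb and the Ndufaf median 19.8, 34 of 36 subunit genes lay above every Ndufaf gene, and the range was 52.1-fold. Ndufb8 then led the subunits at 728.5 CPM per kb, from 157.5 with all exons, and Ndufb7 moved from 48.1 to 349. The order of the 36 subunit genes was nearly the same in both groups of hearts, with a Spearman coefficient of 0.992 across genes, which share the exon lengths and are not independent replicates.

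**Figure D5:**
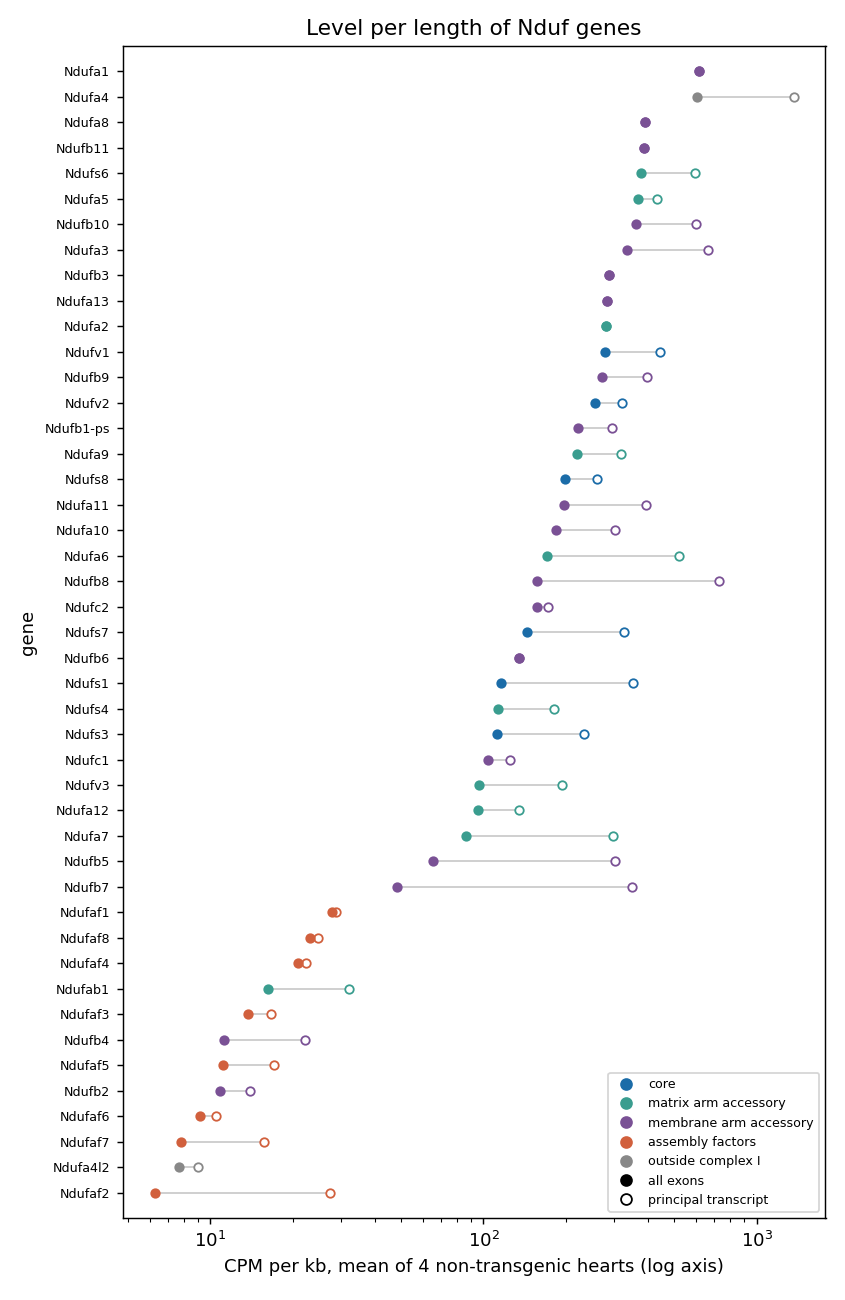
Points give the mean CPM per kb of 45 Nduf genes (the pseudogene is left out) over 4 non-transgenic hearts on a log axis, filled for all exons and open for the principal transcript, coloured by role. Subunit genes lie mostly above 48 CPM per kb and Ndufaf genes at or below 28.0 by all exons, with Ndufab1, Ndufb4 and Ndufb2 among the Ndufaf genes.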

How the data were processed

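Each file the authors deposited holds the raw read counts of 13227 Ensembl genes in a single heart. The submitters' processing notes name cutadapt 1.15, TopHat2 and the mouse assembly under both its names, GRCm38 and mm10. The sources used here do not name the read counter or say how it treated strand and reads with several matches. The labels' protocols name Trizol extraction and a TruSeq kit.

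Symbols, positions and exon lengths came from GENCODE M21. The members and lists were chosen with earlier results of these data known. The named genes were all Nduf genes, with values in every heart for the core (1 of its genes is not reported by name here, in text or plots, but stays in all counts and sums), Ndufa4, Ndufa4l2, and the 8 subunit and 4 Ndufaf genes with the smallest p. Ndufb1-ps, Ndufb7 and Ndufb8 were added to these after their values were seen. Of the other pathway lists, the 2 genes with the smallest p were named, and Nrf1 was added later.

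Testing used edgeR 4.0.16 under R 4.3.3 (filterByExpr, which kept 13226 genes, TMM scaling, quasi-likelihood F test of 4 against 4 hearts, two-sided, Benjamini-Hochberg adjustment over all genes, threshold 0.05). Each SE is the size of the log2 fold change over the root of its F statistic. The fit was tested on simulated data. Copies were sought with blastn 2.17.0 (at least 95% identity over 300 bases). Alternatives included other scalings, DESeq2 1.42.0, limma 3.58.1, other filters, leaving out libraries and, for levels per length, the principal transcript. With at least 643 counts per heart for every subunit gene, counting error is small beside the spread between hearts.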

Additional observations from a re-analysis of the deposited data

Results flagged for a closer look

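Of 94 groups of 4 hearts (47 genes in 2 groups), 1 held a heart far from the others, where chance alone gives about 1 in 20. Ndufs6, an accessory subunit of the matrix arm, stood at 318.7 CPM in transgenic heart B and at 268.2 to 269.8 CPM in the other 3 transgenic hearts. The non-transgenic hearts were at 292 to 394 CPM, so heart B lay within their range for this gene. Its log2 fold change was -0.27 (edgeR adjusted p = 0.453). The gap was not examined further.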

How the results depend on the processing

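Over 19 alternatives, 889 of 891 log2 fold changes of Nduf genes stayed below 0. The exceptions were Ndufa4l2 at 0.095 without non-transgenic D and transgenic A (edgeR adjusted p = 0.805), and Ndufaf4, which ran from -0.18 to 0.0094 when 1 library was left out, highest without non-transgenic B. edgeR called 165 genes, against 408 with DESeq2, 602 with limma-voom and sample weights and 276 without non-transgenic D and transgenic A. Subunit genes called rose from 0 to 1 with DESeq2 and to 1 with limma-voom and sample weights, in both cases Ndufab1. The causes were not tested. Leaving out 1 library gave 112 to 218 genes called and a subunit median log2 fold change of -0.39 to -0.23. With library totals that median was -0.21, and with limma-voom and sample weights -0.19. Nothing in the labels says whether title letters shared by the groups pair the hearts. Deviations from the group means correlated over genes at 0.297, -0.085 and 0.36 for A, B and E. Hearts with different letters correlated at -0.438 to 0.448, so these values cannot decide it. With a replicate block on the letters 124 genes and 0 Nduf genes were called, and the subunit median was -0.35. With 4 hearts per group, the spread between non-transgenic hearts limits what the test can show.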
